A study of Mus musculus with 16 samples.

Results

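Chemokines are small secreted proteins that draw leukocytes along a gradient, and they are described here in mouse lung together with their receptors. Genes were taken by symbol: every gene named Ccl, Ccr, Cxcl, Cxcr, Xcl, Xcr or Ackr with a number, and Cx3cl1 and Cx3cr1. That gave 60 of the 53647 genes measured, which were 38 ligands, 18 receptors that signal to the cell and 4 atypical receptors. Of these, 54 reached 1 TPM in at least 4 libraries and were tested, namely 34 ligands, 16 receptors and all 4 atypical receptors. TPM is a measure of a gene's abundance that takes its transcripts' length into account and sums to the same total in every library.

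RNA was sequenced from mouse lung in 4 groups of 4 libraries, with 2 libraries of every group in each of 2 batches. The groups were control, bleomycin, bleomycin with Ad-GFP, and bleomycin with Ad-ATP12A, where Ad is the field's usual prefix for an adenoviral vector and GFP is green fluorescent protein. Bleomycin, a cytotoxic drug, damages lung tissue and serves as the common mouse model of lung fibrosis. ATP12A is a subunit of a proton pump found outside the stomach. All 3 treated groups therefore received bleomycin, and the group names Ad-GFP and Ad-ATP12A below always include it. The labels give no strain, age, sex, dose, day of collection or promoter of the vectors, and for control they name no vehicle or vector. They also do not say that replicates were separate animals, though the Xist values given below differ within some pairs of replicates. The p-values measure the spread between these libraries, which for the other pairs may be technical. Libraries carry short names in which b1r2, for example, stands for the second replicate of the first batch, and the 4 values of a group are always given in the order b1r1, b1r2, b2r1 and b2r2.

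Chemokine receptors are membrane proteins with 7 helices that signal through the inhibitory class of G proteins. Inflammatory ligands such as Ccl2 or Cxcl10 are switched on in injured tissue and recruit monocytes, neutrophils or effector T cells, while homeostatic ligands such as Ccl19, Ccl21 and Cxcl13 place lymphocytes and dendritic cells in lymphoid tissue. Atypical receptors bind chemokines without driving migration and take them up or hold them. In injured lung the family is best known for bringing blood monocytes into the tissue, where they become macrophages.

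The libraries differed in ways that touch these genes. Atp12a stood at 5.13, 2.96, 29.0 and 25.7 TPM in the Ad-ATP12A libraries and at no more than 0.2 TPM in any other library. Scgb1a1, the main club cell secretory gene, lay under 1000 TPM in control b2r1, bleomycin b2r2 and Ad-GFP b1r1. Transcripts of red blood cells were lower with bleomycin in 5 of 5 marker genes, and their sum ran from 16510 to 50940 TPM in control and from 5779 to 14080 TPM with bleomycin. Xist, the RNA of the inactive X chromosome in female cells, stood at 74.4 to 167 TPM in 6 libraries and at no more than 0.49 TPM in the other 10. These 6 were control b1r1, bleomycin b2r1, Ad-GFP b1r1 and Ad-ATP12A b1r1, b1r2 and b2r2, so 1 of 4 libraries in the first 3 groups and 3 of 4 with Ad-ATP12A. In batch 1 of control and Ad-GFP, and in batch 2 of bleomycin and Ad-ATP12A, 1 replicate held Xist and the other did not. Those pairs were therefore not repeats of 1 animal, and for the other pairs this is unknown. With a term for Xist in the fit, 26, 24 and 29 chemokine genes were called against control with bleomycin, Ad-GFP and Ad-ATP12A, of which 26, 23 and 26 were also called without it. The depth of the libraries is unknown, since TPM keeps no read counts.

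Many chemokine genes were higher with bleomycin. Against control, 24 of the 54 genes rose and 2 fell at an adjusted p under 0.05, which is 48.1% of them against 18.8% of all 17003 genes tested (13.2% higher and 5.61% lower). The rises were 18 of 34 ligands, 5 of 16 receptors (among them Ccr1, Ccr2, Ccr8 and Cx3cr1) and 1 of 4 atypical receptors (Ackr1). The falls were the ligand Cx3cl1 and the atypical receptor Ackr4. The median log2 fold change was 0.73 for the 54 genes, 0.96 for the ligands and 0.19 for the receptors, beside 0.05 for all genes. The lowest bleomycin library lay above the highest control in 25 of the 54 genes, against 16.5% of all genes, and the reverse held for 2, against 6.92%. In RNA from tissue, more cells of a type and more RNA per cell cannot be told apart.

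The same control libraries entered the comparisons of the virus groups. With Ad-GFP 20 of the 54 genes rose and 3 fell against control, or 42.6% against a background of 13.7% (9.16% higher and 4.52% lower), with a median of 0.53 against 0.03 for all genes. Their groups did not overlap for 20 genes that were higher and 2 that were lower, against 10.8% and 4.49% of all genes. With Ad-ATP12A 27 rose and 2 fell, or 53.7% against 22.8% (13.3% higher and 9.49% lower), with a median of 0.87 against 0.00. There 29 genes were higher without overlap and 2 lower, against 14% and 10.8% of all genes. Across the 3 comparisons 19 genes were called higher in each, and Ackr4 and Cx3cl1 lower in each. Of these 19, 6 (Ccl8, Ccl9, Ccl17, Ccl21a, Cxcl10 and Cxcl16) kept all 3 calls whichever of the 16 libraries was left out, and neither of the 2 lower genes did. Without Ad-GFP b2r2 alone, 8 of the 19 and 0 of the 2 kept their calls. Another 20 were called in none.

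The calls differed in how far they rested on single libraries. For bleomycin, 14 of the 26 calls held whichever of the 16 libraries was left out. The other 12 (Ccl2, Ccl3, Ccl7, Ccl21b, Ccr1, Ccr8, Cx3cl1, Cx3cr1, Cxcl2, Cxcl9, Cxcl13 and Cxcl14) were all lost without bleomycin b1r1, so that 14 genes were called without it. For Ad-GFP 8 of 23 calls held throughout (Ccl6, Ccl8, Ccl9, Ccl17, Ccl21a, Cxcl9, Cxcl10 and Cxcl16), and the other 15 were lost without Ad-GFP b2r2, 13 of them also without Ad-GFP b1r2. For Ad-ATP12A 22 of 29 held. Within batch 2 alone, where a group has 2 libraries, 1 chemokine gene was called for bleomycin and 1 for Ad-GFP, beside 0.171% and 0.4% of all genes. All 26, 23 and 29 called genes had the same direction in both batches. Medians over the bleomycin calls were 1.6 in batch 1 and 1.88 in batch 2. The calls were made on both batches together, which favours a shared direction, so this is no separate check.

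**Figure D1:**
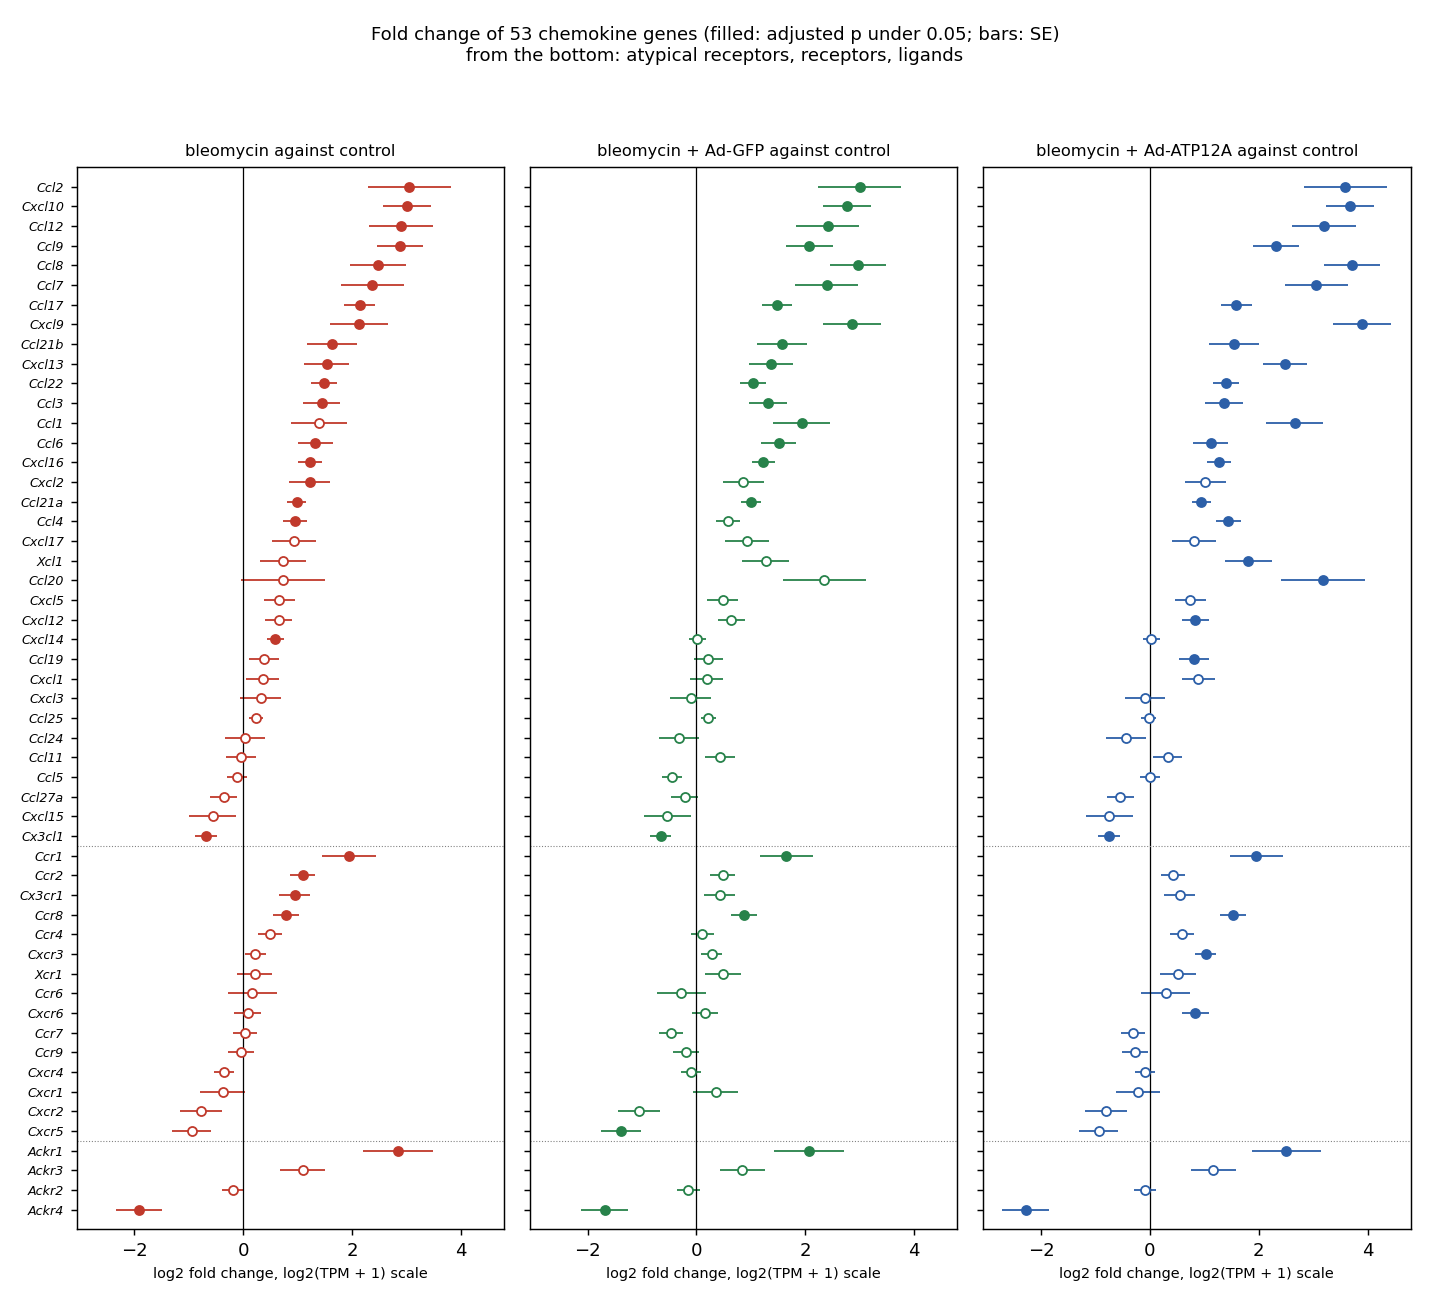
Log2 fold change against control on the log2(TPM + 1) scale for 53 of the 54 chemokine genes tested, with SE bars, for bleomycin (left), Ad-GFP (middle) and Ad-ATP12A (right); filled points have an adjusted p under 0.05. Most filled points lie to the right of 0, with Ackr4 and Cx3cl1 to the left in all 3 panels; Ccl1 was listed at 0 in every control, so its plotted value depends on the added 1 TPM.

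The ligands of Ccr2, the receptor that carries inflammatory monocytes out of the blood, rose together. Ccl2, the best known of them, stood at 1.35, 1.03, 2.71 and 2.23 TPM in control, 47.7, 25.1, 6.5 and 26.9 TPM with bleomycin, 9.48, 57.3, 5.42 and 58.8 TPM with Ad-GFP, and 30.1, 10.7, 62.7 and 51.1 TPM with Ad-ATP12A. No treated library overlapped the controls, but the treated groups were spread widely, with bleomycin b2r1, Ad-GFP b1r1 and b2r1 and Ad-ATP12A b1r2 as the low libraries. All of these but Ad-GFP b2r1 were among the libraries with Xist. Ad-ATP12A b1r1 and b2r2 held Xist too and were not low. The calls of Ccl2 with bleomycin and Ad-GFP held with the term for Xist, and the part of Xist in the spread was not tested. Ccl2 rose by 3.05, 3.0 and 3.59 log2 units (SE 0.765, adjusted p = 0.0153, 0.0215 and 0.00575), values given here and below in the order bleomycin, Ad-GFP, Ad-ATP12A. For Ccl2 the bleomycin call was lost without bleomycin b1r1 (adjusted p up to 0.0609), and the Ad-GFP call was lost without control b1r1 or b1r2 or Ad-GFP b1r2 or b2r2 (adjusted p up to 0.0826). Ccl7, which also acts on Ccr1, stood at 1.97, 1.88, 2.14 and 1.34 TPM in control, 29.5, 14.3, 4.95 and 15.1 TPM with bleomycin, 10.04, 29.5, 4.18 and 26.3 TPM with Ad-GFP, and 26.3, 9.47, 39.7 and 24.9 TPM with Ad-ATP12A. It rose by 2.37, 2.39 and 3.06 log2 units (SE 0.575, adjusted p = 0.0132, 0.0166 and 0.00312), again without overlap. For Ccl7 the bleomycin call was lost without bleomycin b1r1 (adjusted p up to 0.054), and the Ad-GFP call was lost without Ad-GFP b1r2 or b2r2 (adjusted p up to 0.0678). Ccl12, a mouse ligand of Ccr2, stood at 2.42, 2.44, 3.89 and 4.07 TPM in control, 65.1, 29.4, 14.5 and 28.4 TPM with bleomycin, 18.8, 31.8, 6.41 and 46.7 TPM with Ad-GFP, and 35.1, 14.7, 77.7 and 45.97 TPM with Ad-ATP12A. It rose by 2.90, 2.41 and 3.20 log2 units (SE 0.582, adjusted p = 0.00504, 0.0171 and 0.0026), and Ad-GFP b2r1 with 6.41 TPM was the treated library nearest the controls. For Ccl12 the Ad-GFP call was lost without control b1r2 or Ad-GFP b1r2 or b2r2 (adjusted p up to 0.0664).

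Ccr2 itself stood at 35.8, 31.7, 35.1 and 29.2 TPM in control, 80.1, 56.4, 50.8 and 112 TPM with bleomycin, 33.3, 43.7, 48.4 and 64.6 TPM with Ad-GFP, and 47.6, 47.7, 46.02 and 37.4 TPM with Ad-ATP12A. The bleomycin libraries all lay above the controls, as did those of Ad-ATP12A, while 1 Ad-GFP library (b1r1) lay among them. Ccr2 rose by 1.09 log2 units with bleomycin (SE 0.224, adjusted p = 0.0056), and its differences of 0.48 with Ad-GFP and 0.43 with Ad-ATP12A missed the threshold (adjusted p = 0.166 and 0.182). Markers of monocytes and interstitial macrophages moved with these genes. Of 8 such markers, 7 rose in each of the 3 comparisons, and their sum ran from 170.9 to 244.8 TPM in control, 627.7 to 1395 TPM with bleomycin, 504.6 to 2105 TPM with Ad-GFP and 717 to 2618 TPM with Ad-ATP12A. None of the 8 was at 0 in any library, and their part in the chemokine result was not tested.

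Ccr1 and ligands of the macrophage inflammatory protein group also rose. Ccr1, a receptor of monocytes and neutrophils, stood at 7.76, 7.43, 4.29 and 3.37 TPM in control, 35.6, 20.5, 16.9 and 25.2 TPM with bleomycin, 8.48, 30.7, 11.96 and 41.5 TPM with Ad-GFP, and 18.3, 11.3, 43.7 and 36.3 TPM with Ad-ATP12A. Every treated library lay above every control, Ad-GFP b1r1 by the smallest margin. Ccr1 rose by 1.94, 1.65 and 1.96 log2 units (SE 0.491, adjusted p = 0.0159, 0.0401 and 0.0131). For Ccr1 the bleomycin call was lost without bleomycin b1r1 (adjusted p up to 0.062), and the Ad-GFP call was lost without control b1r1, b1r2, b2r1 or b2r2, bleomycin b1r2 or b2r2, or Ad-GFP b1r2 or b2r2 (adjusted p up to 0.139).

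Among the ligands of this group, Ccl9, a rodent ligand of Ccr1, stood at 30.2, 12.7, 19.9 and 19.6 TPM in control, 229, 104, 91.4 and 242 TPM with bleomycin, 43.9, 129.9, 71.5 and 132 TPM with Ad-GFP, and 91.2, 90.6, 69.3 and 189 TPM with Ad-ATP12A. Controls reached at most 30.2 TPM, and all treated libraries were higher. Ccl9 rose by 2.88, 2.07 and 2.32 log2 units (SE 0.429, adjusted p = 8.8e-04, 0.00854 and 0.00291). Ccl6, its neighbour on chromosome 11 and the second most abundant chemokine gene of these lungs by mean TPM, stood at 471, 359.9, 173 and 279 TPM in control, 709, 619, 819 and 897 TPM with bleomycin, 564, 1012, 1071 and 903 TPM with Ad-GFP, and 532, 658, 461 and 1127 TPM with Ad-ATP12A. Its Ad-ATP12A libraries overlapped control by a narrow margin at b2r1. Ccl6 rose by 1.32, 1.51 and 1.12 log2 units (SE 0.321, adjusted p = 0.0132, 0.00973 and 0.0249). For Ad-ATP12A that call was lost without control b2r1, control b2r2 or Ad-ATP12A b2r2, with an adjusted p of up to 0.084.

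Ccl3, a ligand of Ccr1, stood at 2.18, 2.63, 3.13 and 1.54 TPM in control, 13.9, 6.76, 3.65 and 11.3 TPM with bleomycin, 5.17, 10.8, 4.46 and 10.9 TPM with Ad-GFP, and 7.58, 5.78, 7.58 and 9.57 TPM with Ad-ATP12A. It rose by 1.44, 1.32 and 1.36 log2 units (SE 0.347, adjusted p = 0.0127, 0.0241 and 0.0143) with no overlap. For Ccl3 the bleomycin call was lost without bleomycin b1r1 (adjusted p up to 0.0523), and the Ad-GFP call was lost without control b1r1 or b1r2 or Ad-GFP b1r2 or b2r2 (adjusted p up to 0.0896). Ccl4, its close relative, stood at 0.8, 1.11, 1.37 and 1.24 TPM in control, 5.09, 3.14, 1.46 and 3.48 TPM with bleomycin, 1.92, 2.56, 1.67 and 2.59 TPM with Ad-GFP, and 5.84, 3.78, 5.06 and 4.55 TPM with Ad-ATP12A. The lowest treated library, bleomycin b2r1, lay just above the highest control. Ccl4 rose by 0.95 with bleomycin (SE 0.227, adjusted p = 0.0125) and by 1.44 with Ad-ATP12A (adjusted p = 0.00115), and its difference of 0.58 with Ad-GFP had an adjusted p of 0.106. Ccl5, which also binds Ccr1 and comes largely from T and NK cells, stood at 45.0, 39.0, 50.97 and 40.1 TPM in control, 31.1, 34.4, 44.8 and 53.8 TPM with bleomycin, 30.3, 21.5, 29.7 and 51.9 TPM with Ad-GFP, and 41.9, 34.3, 60.7 and 41.4 TPM with Ad-ATP12A. The groups overlapped throughout and Ccl5 was called in no group comparison, with differences of -0.12, -0.45 and 0.00.

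Ccl8 was among the largest responders. In the mouse it acts on Ccr8, a receptor of T helper and regulatory T cells, and it stood at 4.98, 15.1, 13.3 and 10.4 TPM in control, 94.3, 44.95, 30.5 and 105 TPM with bleomycin, 63.1, 69.6, 53.8 and 232 TPM with Ad-GFP, and 86.4, 82.2, 333 and 185 TPM with Ad-ATP12A. The 2 highest libraries were Ad-ATP12A b2r1 and Ad-GFP b2r2, and no treated library came below 30.5 TPM. Ccl8 rose by 2.47, 2.96 and 3.71 log2 units (SE 0.514, adjusted p = 0.00603, 0.0033 and 4.6e-04). Ccl1, the other ligand of Ccr8, was listed at 0 in all 4 controls and stood at 2.26, 1.2, 0.3 and 4.02 TPM with bleomycin, at 2.94, 2.43, 0.46 and 9.71 TPM with Ad-GFP and at 6.56, 2.36, 8.39 and 5.72 TPM with Ad-ATP12A. Its adjusted p was 0.0778, 0.0269 and 0.00377, and no fold is given against values at 0. The Ad-GFP call for Ccl1 was lost without any one of control b1r1, b1r2 or b2r1 or Ad-GFP b1r1, b1r2 or b2r2 (adjusted p up to 0.0882).

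Ccr8 was low in every library and stood at 0.31, 0.35, 0.33 and 0.5 TPM in control, 1.01, 0.87, 1.26 and 2.69 TPM with bleomycin, 1.18, 1.03, 0.94 and 3.63 TPM with Ad-GFP, and 3.15, 2.6, 3.6 and 2.59 TPM with Ad-ATP12A. No treated library overlapped control. Ccr8 rose by 0.79, 0.87 and 1.53 log2 units (SE 0.242, adjusted p = 0.0369, 0.0304 and 0.00115). For Ccr8 the bleomycin call was lost without any of 7 libraries, namely each control or bleomycin b1r1, b1r2 or b2r2, with an adjusted p of up to 0.116, and the Ad-GFP call without control b1r1, b1r2 or b2r1 or Ad-GFP b1r2 or b2r2 (up to 0.089). With Ad-ATP12A it held in all 16 such fits.

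Ccl17 and Ccl22, the ligands of Ccr4 that macrophages and dendritic cells make under type 2 cytokines, rose in every treated group. Ccl17 stood at 14.7, 13.4, 15.5 and 13.8 TPM in control, 72.3, 76.5, 48.6 and 72.1 TPM with bleomycin, 36.3, 43.8, 22.2 and 84.1 TPM with Ad-GFP, and 45.7, 44.1, 41.4 and 49.3 TPM with Ad-ATP12A. The controls spanned only 13.4 to 15.5 TPM, and the lowest treated library, Ad-GFP b2r1, held 22.2 TPM. Ccl17 rose by 2.14, 1.48 and 1.59 log2 units (SE 0.281, adjusted p = 3.8e-04, 0.0055 and 0.00232). Ccl22 stood at 7.68, 5.27, 6.24 and 3.43 TPM in control, 13.6, 14.9, 17.04 and 24.1 TPM with bleomycin, 11.4, 10.5, 10.2 and 18.2 TPM with Ad-GFP, and 17.9, 17.5, 11.4 and 18.4 TPM with Ad-ATP12A. It rose by 1.48, 1.04 and 1.40 log2 units (SE 0.244, adjusted p = 0.00171, 0.0149 and 0.00209), also without overlap. For Ccl22 the Ad-GFP call was lost without Ad-GFP b2r2 (adjusted p up to 0.0558). Their receptor Ccr4 stood at 0.5, 0.85, 0.48 and 0.56 TPM in control, 0.56, 0.76, 2.53 and 1.59 TPM with bleomycin, 0.87, 0.41, 0.73 and 0.9 TPM with Ad-GFP, and 1.29, 1.76, 0.97 and 1.71 TPM with Ad-ATP12A. The Ad-ATP12A libraries lay above the controls and the other groups overlapped them. Its differences of 0.49, 0.11 and 0.60 had adjusted p-values of 0.134, 0.775 and 0.0638, so the receptor did not pass where both ligands did.

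The interferon-induced ligands of Cxcr3, a receptor of effector T cells and NK cells, were among the steepest rises. Cxcl10 stood at 3.63, 2.44, 2.64 and 2.64 TPM in control, 42.1, 37.7, 13.9 and 35.1 TPM with bleomycin, 20.2, 29.4, 11.2 and 56.5 TPM with Ad-GFP, and 62.8, 27.02, 69.8 and 43.9 TPM with Ad-ATP12A. The controls were all under 4 TPM and the lowest treated library, Ad-GFP b2r1, held 11.2 TPM. Cxcl10 rose by 3.01, 2.77 and 3.68 log2 units (SE 0.439, adjusted p = 7.7e-04, 0.00195 and 1.7e-04). Cxcl9, induced mainly by interferon gamma, stood at 1.44, 0.32, 0.76 and 1.25 TPM in control, 8.2, 6.49, 3.21 and 14.8 TPM with bleomycin, 7.4, 11.3, 6.09 and 47.3 TPM with Ad-GFP, and 21.3, 19.8, 57.8 and 22.2 TPM with Ad-ATP12A. No treated library overlapped the controls, and the 2 highest were Ad-ATP12A b2r1 and Ad-GFP b2r2, as for Ccl8. Cxcl9 rose by 2.12, 2.86 and 3.90 log2 units (SE 0.533, adjusted p = 0.0153, 0.00504 and 4.1e-04). For Cxcl9 the bleomycin call was lost without bleomycin b1r1 or b2r2 (adjusted p up to 0.0553). Cxcl11, the remaining ligand, did not pass the filter and ranged from 0 to 1.23 TPM.

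Cxcr3 followed its ligands in 1 of the 3 treated groups. It stood at 3.08, 2.55, 2.54 and 3.23 TPM in control, 2.82, 2.97, 3.21 and 5.19 TPM with bleomycin, 4.21, 2.02, 3.58 and 5.54 TPM with Ad-GFP, and 6.64, 6.21, 7.91 and 6.7 TPM with Ad-ATP12A. The 4 Ad-ATP12A libraries lay above all other 12. Cxcr3 rose by 1.03 log2 units with Ad-ATP12A (SE 0.19, adjusted p = 0.00277), while its differences of 0.22 with bleomycin and 0.28 with Ad-GFP were not called (adjusted p = 0.452 and 0.338). Cxcl16, a membrane-bound ligand of macrophages and dendritic cells, stood at 37.1, 45.4, 49.6 and 37.1 TPM in control, 132, 110.2, 68.6 and 97.7 TPM with bleomycin, 81.3, 118, 74.2 and 140.2 TPM with Ad-GFP, and 104, 88.7, 123 and 96.6 TPM with Ad-ATP12A, and it rose by 1.23, 1.23 and 1.27 log2 units (SE 0.219, adjusted p = 0.00275, 0.00378 and 0.00194) without overlap. Its receptor Cxcr6, found on tissue-resident T cells and innate lymphoid cells, stood at 8.01, 5.76, 5.17 and 7.0 TPM in control, 4.33, 4.6, 12.4 and 8.29 TPM with bleomycin, 7.16, 4.43, 8.6 and 9.65 TPM with Ad-GFP, and 11.6, 12.97, 14.2 and 10.6 TPM with Ad-ATP12A. Cxcr6 rose by 0.84 with Ad-ATP12A (SE 0.241, adjusted p = 0.0245) and its differences of 0.08 and 0.15 in the other groups were not called. The Cxcr6 call was lost without control b1r2 or b2r1 or Ad-ATP12A b1r1, b1r2 or b2r1 (adjusted p up to 0.072).

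Markers of T cells moved with these receptors. Of 8 markers, 6 rose with Ad-ATP12A, 1 with bleomycin and 0 with Ad-GFP, and none was at 0 in any library. Their sum ran from 107.4 to 121.3 TPM with Ad-ATP12A, from 54.37 to 68.87 TPM in control, from 52.85 to 131.4 TPM with bleomycin and from 43.28 to 121.7 TPM with Ad-GFP. Of 5 NK cell markers, 3 fell with Ad-ATP12A and 2 with Ad-GFP. The part of either in the receptor levels was not tested.

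**Figure D2:**
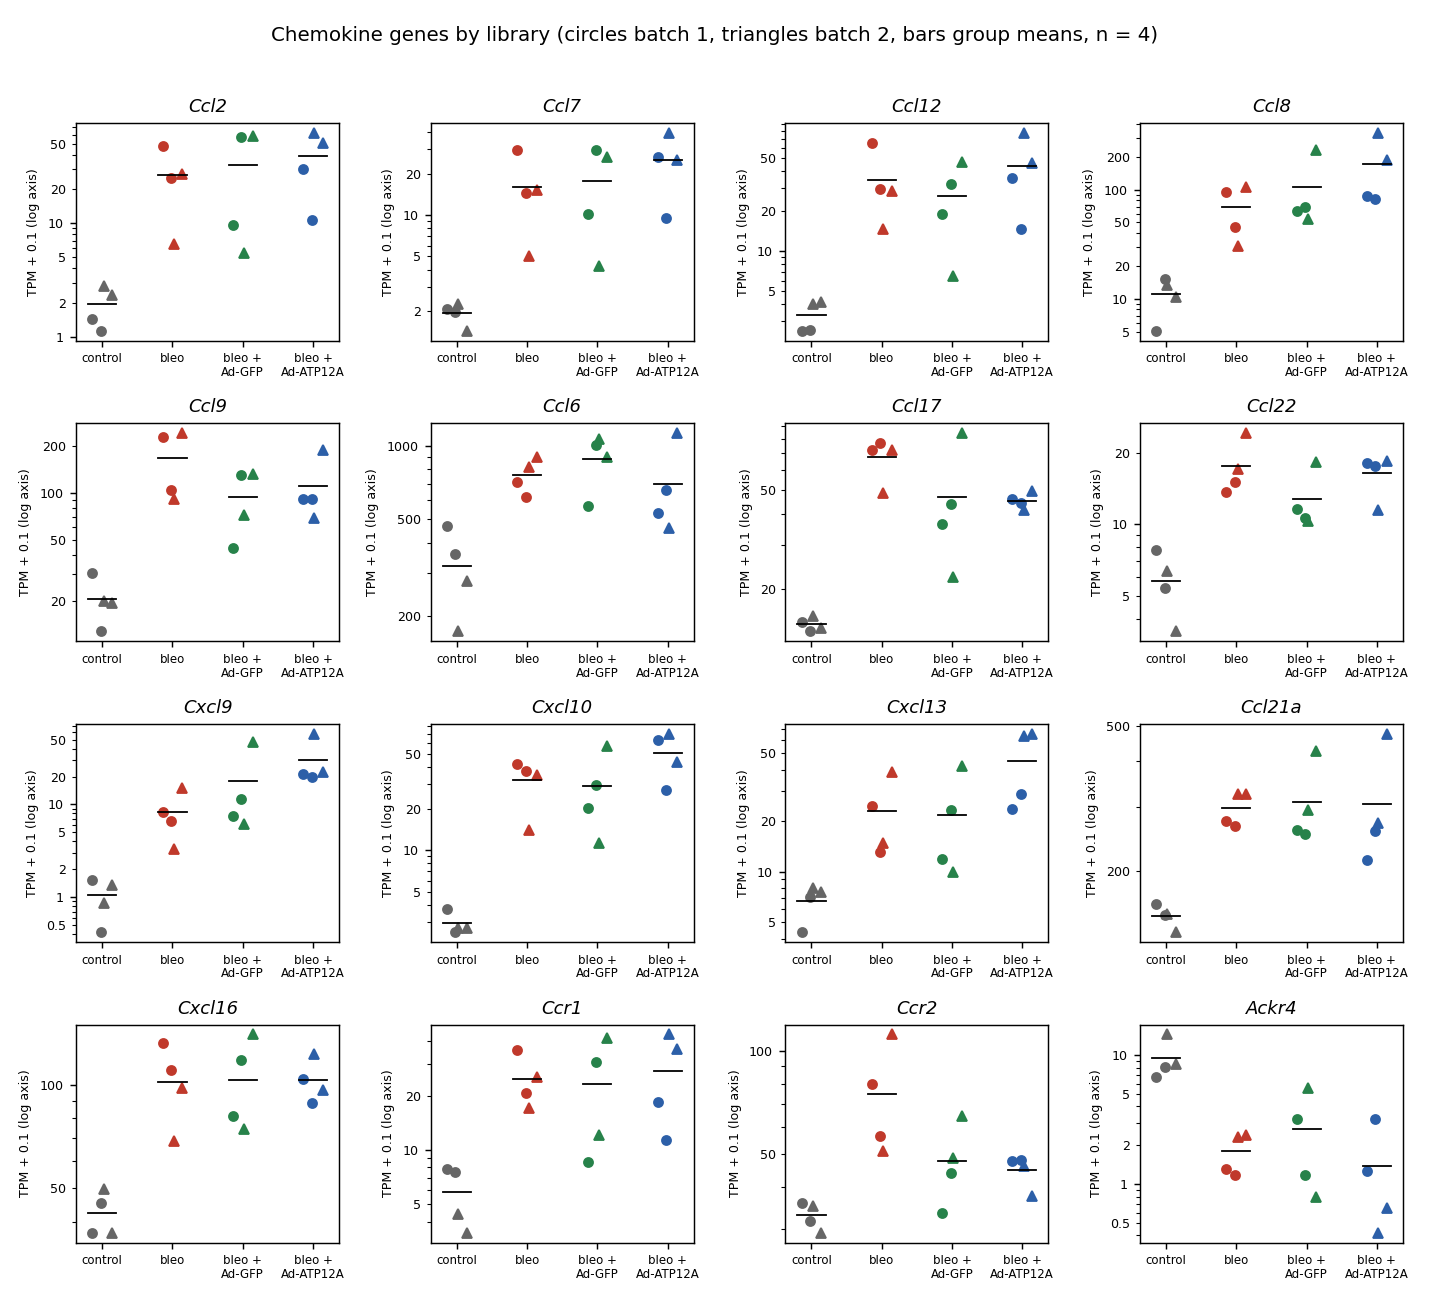
TPM of 16 chemokine genes in every library on log axes, with 0.1 TPM added for plotting; points are libraries (circles batch 1, triangles batch 2) and bars are means of 4 libraries. Control libraries lie below the treated ones for nearly every gene shown and above them for Ackr4, and the treated groups overlap one another.

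Promoter sequences show which of these genes carry, close to their start, a fixed form of the letters that interferon factors or NF-kappaB can bind. The 250 bases before the start were taken from RefSeq on GRCm38.p6, an earlier build than the one used for the reads, for the 45 of 60 genes that have an entry. The motifs searched on both strands were GAAANNGAAA for the interferon-stimulated response element and GGGNNTTTCC for a form of the NF-kappaB site, and neither contains the other. The first occurred for 3 genes (Ccl19, Cxcl10 and Cxcl14), in 5.77% of 52 windows against 2.98% of 32851 windows of all genes. The second occurred for 6 (Ccl9, Ccl20, Ccr3, Cxcl1, Cxcl2 and Cxcl3), in 11.5% against 1.41%. A match describes letters only. Other forms of either site were not searched, so a gene without a match may still hold one. Shown are Cxcl10, the interferon-induced ligand above, at chr5:92348890-92349139 on the minus strand; the neighbours Cxcl1, Cxcl2 and Cxcl3 at chr5:90890995-90891244, chr5:90903649-90903898 and chr5:90785851-90786100 on the plus strand; Ccl9 at chr11:83578637-83578886 on the minus strand; and Ccl20 at chr1:83116516-83116765 on the plus strand. Each reads 5′ to 3′ toward the start, and capitals mark the motif.
Cxcl10: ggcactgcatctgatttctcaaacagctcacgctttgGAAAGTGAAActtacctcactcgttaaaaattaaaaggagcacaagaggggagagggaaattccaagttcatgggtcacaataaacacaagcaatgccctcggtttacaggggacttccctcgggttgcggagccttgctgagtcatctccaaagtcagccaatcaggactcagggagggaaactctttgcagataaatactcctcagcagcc
Cxcl1: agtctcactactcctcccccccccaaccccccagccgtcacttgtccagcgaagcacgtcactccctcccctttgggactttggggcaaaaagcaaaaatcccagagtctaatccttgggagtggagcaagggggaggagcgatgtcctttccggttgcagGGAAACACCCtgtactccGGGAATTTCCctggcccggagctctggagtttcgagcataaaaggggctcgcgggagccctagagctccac
Cxcl2: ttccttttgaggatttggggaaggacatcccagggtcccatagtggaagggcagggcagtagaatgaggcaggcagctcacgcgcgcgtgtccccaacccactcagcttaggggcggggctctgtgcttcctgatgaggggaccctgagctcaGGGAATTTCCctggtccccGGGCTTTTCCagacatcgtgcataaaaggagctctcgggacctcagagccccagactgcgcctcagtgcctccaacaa
Cxcl3: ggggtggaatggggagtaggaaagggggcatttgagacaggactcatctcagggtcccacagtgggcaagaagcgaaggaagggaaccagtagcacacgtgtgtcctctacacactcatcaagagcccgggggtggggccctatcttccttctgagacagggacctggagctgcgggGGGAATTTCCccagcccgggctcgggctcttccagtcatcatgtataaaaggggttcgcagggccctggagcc
Ccl9: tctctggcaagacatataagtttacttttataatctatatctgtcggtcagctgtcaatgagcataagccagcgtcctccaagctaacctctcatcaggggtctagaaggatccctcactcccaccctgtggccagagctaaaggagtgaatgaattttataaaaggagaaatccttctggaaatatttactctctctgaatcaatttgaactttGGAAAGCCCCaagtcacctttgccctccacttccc
Ccl20: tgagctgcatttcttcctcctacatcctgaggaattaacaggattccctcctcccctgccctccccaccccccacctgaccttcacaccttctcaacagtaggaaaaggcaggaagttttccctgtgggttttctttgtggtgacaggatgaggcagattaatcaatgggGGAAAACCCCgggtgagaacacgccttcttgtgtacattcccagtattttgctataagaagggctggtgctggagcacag

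Genes with the same motif were called in some cases and not in others. Of the 19 genes with an entry that rose with bleomycin, 2 held the searched form of the NF-kappaB site (Ccl9 and Cxcl2). Of 21 that were not called, 3 held it (Ccl20, Cxcl1 and Cxcl3). Cxcl1, Cxcl2 and Cxcl3 each carry the 10 letters GGGAATTTCC on the strand shown. They are ligands of Cxcr2, the receptor that recruits neutrophils, and all were low.

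Of the Cxcr2 ligands, Cxcl2 rose by 1.22 with bleomycin (SE 0.375, adjusted p = 0.0368), from 0.15 to 1.58 TPM in control to 1.11 to 6.54 TPM. That call was lost without control b1r2 or b2r1 or bleomycin b1r1, b1r2 or b2r2 (adjusted p up to 0.129), and its differences of 0.86 and 1.02 in the virus groups were not called. Cxcl1 ranged from 1 to 5.93 TPM over all libraries and was not called, though its 4 Ad-ATP12A libraries lay above the controls (difference 0.89, adjusted p = 0.0501). Cxcl3 and Cxcl5 stayed at or under 4.98 and 2.54 TPM and were not called. Their receptors were not called either: Cxcr2 ranged from 0.9 to 8.23 TPM, with differences of -0.78, -1.06 and -0.80, and Cxcr1 from 0.37 to 5.73 TPM. Neutrophil markers did not pass in any comparison with control (0 of 5 tested), with sums of 190.7 to 694.5 TPM in control and 143.7 to 635.1 TPM with bleomycin.

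Cxcl15, a chemokine of lung epithelium, was the most abundant member, at 986.4 TPM on average over the 16 libraries. It ranged from 634 to 2517 TPM in control and from 548 to 1401 TPM with bleomycin, and it was not called (difference -0.56, adjusted p = 0.385). The batches went opposite ways. In batch 1 the controls held 2517 and 1490 TPM and the bleomycin libraries 548 and 675 TPM. In batch 2 the controls held 923 and 634 TPM and the bleomycin libraries 1401 and 884 TPM. Cxcl17, of mucosal epithelium, ranged from 46.3 to 174 TPM in control and from 103 to 167 TPM with bleomycin, and was not called (0.93, adjusted p = 0.125). Control b2r1 held 174 TPM and the other controls 60.2 TPM or less, and without it Cxcl17 was called (adjusted p = 0.00539).

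Among the lymphoid ligands, Cxcl13, Ccl21a and Ccl21b rose in all 3 comparisons with control. Cxcl13, which draws B cells through Cxcr5, stood at 4.28, 6.93, 7.84 and 7.45 TPM in control, 24.3, 12.9, 14.7 and 38.6 TPM with bleomycin, 11.7, 22.9, 9.84 and 41.8 TPM with Ad-GFP, and 23.4, 28.7, 63.3 and 65.3 TPM with Ad-ATP12A. Treated libraries all lay above the controls, and the Ad-ATP12A libraries of batch 2 were the highest. Cxcl13 rose by 1.53, 1.37 and 2.49 log2 units (SE 0.405, adjusted p = 0.0192, 0.0385 and 0.00135). For Cxcl13 the bleomycin call was lost without control b1r1 or bleomycin b1r1 or b2r2 (adjusted p up to 0.0721), and the Ad-GFP call without any of 6 libraries (up to 0.134), namely each control and Ad-GFP b1r2 and b2r2. Cxcr5, the B cell receptor for it, stood at 7.88, 11.8, 12.8 and 11.1 TPM in control, 2.93, 2.75, 9.83 and 7.5 TPM with bleomycin, 4.82, 1.63, 3.69 and 4.57 TPM with Ad-GFP, and 9.3, 5.57, 3.21 and 3.94 TPM with Ad-ATP12A. The Ad-GFP libraries lay below all controls. Cxcr5 fell by 1.39 with Ad-GFP (SE 0.364, adjusted p = 0.0234), a call lost without control b1r2 or b2r1 or Ad-GFP b1r2 or b2r2 (up to 0.089). With bleomycin and Ad-ATP12A its differences of -0.95 and -0.94 were not called (adjusted p = 0.0818 and 0.0758). Of 6 B cell markers, 4 fell with Ad-GFP, 1 with Ad-ATP12A and 0 with bleomycin. Their sum was 135.6 to 205.8 TPM in control, 40.15 to 86.1 TPM with Ad-GFP, 53.1 to 157.8 TPM with bleomycin and 58.71 to 157.9 TPM with Ad-ATP12A, and their part in the level of Cxcr5 was not tested.

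Ccl21a, made by lymphatic vessels and lymphoid stroma, stood at 162, 151, 152 and 136 TPM in control, 273, 265, 325 and 326 TPM with bleomycin, 259, 253, 294 and 427 TPM with Ad-GFP, and 214, 257, 270.2 and 476 TPM with Ad-ATP12A. The controls lay between 136 and 162 TPM and no treated library fell below 214 TPM. Ccl21a rose by 0.98, 1.0 and 0.95 log2 units (SE 0.182, adjusted p = 0.00334, 0.00429 and 0.00341). Its copy Ccl21b stood at 24.01, 40.6, 10.2 and 17.1 TPM in control, 60.4, 63.6, 58.5 and 80.7 TPM with bleomycin, 86.2, 19.03, 92.2 and 98.8 TPM with Ad-GFP, and 47.3, 67.8, 60.6 and 75.3 TPM with Ad-ATP12A, with Ad-GFP b1r2 back among the controls. The counts of the pair are uncertain, because 71.6% of the 50-base words of Ccl21a and 100% of those of Ccl21b also occur in other genes. Ccl21b rose by 1.63, 1.57 and 1.55 log2 units (SE 0.464, adjusted p = 0.0269, 0.0394 and 0.0292). For Ccl21b the bleomycin call was lost without control b2r1 or b2r2 or bleomycin b1r1, b1r2 or b2r2 (adjusted p up to 0.0772), and the Ad-GFP call was lost without control b1r1, b2r1 or b2r2, bleomycin b1r1, b1r2 or b2r2, or Ad-GFP b1r1, b2r1 or b2r2 (adjusted p up to 0.127), and the Ad-ATP12A call was lost without control b2r1 or b2r2 or Ad-ATP12A b1r2, b2r1 or b2r2 (adjusted p up to 0.0855).

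Ccl19, the other Ccr7 ligand, stood at 4.48, 5.63, 5.26 and 12.3 TPM in control, 8.25, 5.39, 10.1 and 12.2 TPM with bleomycin, 10.98, 5.28, 5.98 and 9.62 TPM with Ad-GFP, and 12.8, 8.65, 11.4 and 16.4 TPM with Ad-ATP12A. Its control b2r2 lay above 10 of the 12 treated libraries. Ccl19 rose by 0.81 with Ad-ATP12A (SE 0.274, adjusted p = 0.046), and 52% of its 50-base words also occur in other genes. For Ccl19 the Ad-ATP12A call was lost without control b1r1, b1r2 or b2r1, bleomycin b1r1, b2r1 or b2r2, Ad-GFP b1r2 or b2r2, or Ad-ATP12A b1r1, b2r1 or b2r2 (adjusted p up to 0.126). Ccr7, the receptor of mature dendritic cells and naive T cells, stood at 7.93, 11.8, 19.3 and 13.1 TPM in control, 9.76, 11.3, 16.2 and 15.2 TPM with bleomycin, 7.11, 6.67, 8.85 and 13.3 TPM with Ad-GFP, and 10.9, 12.2, 7.7 and 9.47 TPM with Ad-ATP12A. The groups overlapped and no difference was called (0.04, -0.47 and -0.30). Lymphatic endothelial markers did not follow as a set: 2 of 5 rose with bleomycin (Prox1 and Reln), and their sum was 136.4 to 224.3 TPM in control and 98.12 to 187.4 TPM with bleomycin.

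Ackr4, the scavenging receptor for Ccl19, Ccl21 and Ccl25, went the opposite way and stood at 6.67, 7.98, 14.4 and 8.42 TPM in control, 1.2, 1.07, 2.22 and 2.29 TPM with bleomycin, 3.09, 1.07, 5.42 and 0.69 TPM with Ad-GFP, and 1.16, 3.09, 0.32 and 0.55 TPM with Ad-ATP12A. Every treated library lay below every control. Ackr4 fell by 1.92 with bleomycin, 1.69 with Ad-GFP and 2.28 with Ad-ATP12A on the log2 scale (SE 0.426, adjusted p = 0.00826, 0.0205 and 0.00303). The Ad-GFP call was lost without control b2r1 or Ad-GFP b1r2 or b2r2 (adjusted p up to 0.078). Its ligand Ccl25 ranged from 5.05 to 8.32 TPM over all libraries and was not called. Without the 3 libraries low in Scgb1a1 the call of Ackr4 with bleomycin was also lost.

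Ackr1, which displays inflammatory chemokines on the endothelium of small veins, stood at 0.8, 0.21, 0.94 and 0.7 TPM in control, 11.3, 15.7, 6.61 and 11.4 TPM with bleomycin, 2.69, 8.26, 1.45 and 25.1 TPM with Ad-GFP, and 6.56, 2.1, 14.02 and 20.6 TPM with Ad-ATP12A. Controls stayed under 1 TPM, and all treated libraries were higher. Ackr1 rose by 2.85, 2.06 and 2.51 log2 units (SE 0.641, adjusted p = 0.00895, 0.0473 and 0.0143). For Ackr1 the Ad-GFP call was lost without control b1r1, b1r2, b2r1 or b2r2, bleomycin b1r1, b1r2 or b2r2, Ad-GFP b1r2 or b2r2, or Ad-ATP12A b1r1 or b2r1 (adjusted p up to 0.155), and the Ad-ATP12A call was lost without Ad-ATP12A b2r2 (adjusted p up to 0.0519). The gene shares 20.4% of its 50-base words with others, most with Cadm3. General endothelial markers did not rise: 0 of 5 rose in any of the 3 comparisons, and 4 fell with Ad-ATP12A. Ackr2, a scavenger of inflammatory CC chemokines, ranged from 13.2 to 31.8 TPM and was not called.

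Cx3cl1 and Cx3cr1 moved in opposite directions with bleomycin. Cx3cl1, fractalkine, is anchored on endothelium and epithelium and stood at 21.96, 28.5, 45.6 and 20.6 TPM in control, 16.9, 14.3, 19.9 and 17.1 TPM with bleomycin, 15.03, 13.9, 23.8 and 17.5 TPM with Ad-GFP, and 15.8, 17.8, 15.5 and 15.6 TPM with Ad-ATP12A. Control b2r1 was far above the rest of its group, and only Ad-GFP, through b2r1, overlapped control. Cx3cl1 fell by 0.68, 0.66 and 0.75 on the log2 scale (SE 0.2, adjusted p = 0.0304, 0.0429 and 0.0178). For Cx3cl1 the bleomycin call was lost without control b1r2 or b2r1 or bleomycin b1r1, b1r2 or b2r2 (adjusted p up to 0.0855), and the Ad-GFP call was lost without control b1r1, b1r2 or b2r1, bleomycin b1r1, b1r2 or b2r2, Ad-GFP b1r1, b1r2 or b2r2, or Ad-ATP12A b1r1, b2r1 or b2r2 (adjusted p up to 0.133), and the Ad-ATP12A call was lost without control b1r2 or Ad-ATP12A b2r1 or b2r2 (adjusted p up to 0.0573). Cx3cr1, its receptor on monocytes and macrophages, stood at 14.7, 10.1, 11.1 and 7.23 TPM in control, 24.4, 16.5, 13.9 and 35.04 TPM with bleomycin, 9.64, 14.2, 14.04 and 22.3 TPM with Ad-GFP, and 15.8, 13.2, 19.95 and 15.03 TPM with Ad-ATP12A. It rose by 0.95 with bleomycin (SE 0.285, adjusted p = 0.0335), with 1 bleomycin library (b2r1) among the controls, and its differences of 0.43 and 0.55 in the virus groups were not called. Leaving out control b1r2, b2r1 or b2r2 or bleomycin b1r1, b1r2 or b2r2 ended that call (up to 0.108).

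Cxcl12, the stromal ligand of Cxcr4 and of the scavenger Ackr3, stood at 94.8, 98.7, 123 and 137 TPM in control, 146, 154, 179 and 242 TPM with bleomycin, 96.8, 200.2, 176 and 279 TPM with Ad-GFP, and 116, 122, 312 and 377 TPM with Ad-ATP12A. The mean of batch 2 was higher than that of batch 1 in every group, with overlap in Ad-GFP, and the bleomycin libraries lay above all controls. Cxcl12 rose by 0.84 with Ad-ATP12A (SE 0.253, adjusted p = 0.0293), 0.29 in batch 1 and 1.39 in batch 2, and the call was lost without control b2r1 or b2r2 or Ad-ATP12A b2r1 or b2r2 (up to 0.0982). With bleomycin and Ad-GFP its differences of 0.65 and 0.64 were not called (adjusted p = 0.0852 and 0.105). Cxcr4 stood at 41.9, 63.1, 94.9 and 56.5 TPM in control, 40.3, 42.4, 62.8 and 49.95 TPM with bleomycin, 51.4, 48.3, 72.4 and 60.1 TPM with Ad-GFP, and 40.9, 70.5, 63.99 and 59.1 TPM with Ad-ATP12A, and Ackr3 at 24.2, 15.5, 22.8 and 15.2 TPM in control, 36.9, 40.6, 33.6 and 59.8 TPM with bleomycin, 19.1, 42.9, 21.8 and 80.96 TPM with Ad-GFP, and 25.6, 24.4, 95.3 and 61.5 TPM with Ad-ATP12A. Cxcr4 overlapped in all groups and was not called, while Ackr3 was higher without overlap with bleomycin and Ad-ATP12A, at differences of 1.09, 0.84 and 1.17 that missed the threshold (adjusted p = 0.0813, 0.191 and 0.0573).

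Cxcl14, a homeostatic chemokine of epithelium and stroma, was called for bleomycin against control and stood at 79.8, 65.9, 92.6 and 75.7 TPM in control, 116, 119, 114 and 123 TPM with bleomycin, 57.96, 96.7, 88.2 and 77.2 TPM with Ad-GFP, and 62.5, 81.2, 74.98 and 104 TPM with Ad-ATP12A. The bleomycin libraries, from 114 to 123 TPM, lay above all other 12. Cxcl14 rose by 0.59 (SE 0.156, adjusted p = 0.0188) with bleomycin, a call lost without control b1r2 or bleomycin b1r1 or b1r2 (up to 0.0608), and it differed from control by 0.01 with Ad-GFP and 0.03 with Ad-ATP12A.

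Ccl20, the ligand that brings dendritic cells and type 17 lymphocytes to mucosa through Ccr6, stood at 1.81, 2.5, 0.69 and 2.69 TPM in control, 1.86, 3.49, 6.39 and 3.87 TPM with bleomycin, 9.68, 4.12, 9.44 and 71.03 TPM with Ad-GFP, and 60.5, 60.95, 7.84 and 11.4 TPM with Ad-ATP12A. The spread was wide in both virus groups: Ad-GFP b2r2 and both Ad-ATP12A libraries of batch 1 held 60.5 TPM or more, and the others 11.4 TPM or less. Ccl20 rose by 3.18 with Ad-ATP12A (SE 0.77, adjusted p = 0.011), 4.30 in batch 1 and 2.06 in batch 2. It differed by 2.35 with Ad-GFP (adjusted p = 0.0578) and by 0.73 with bleomycin (0.54), and without the 3 libraries low in Scgb1a1 the Ad-ATP12A call was lost. Ccr6 stood at 6.45, 4.03, 5.84 and 3.82 TPM in control, 2.45, 2.86, 10.8 and 11.8 TPM with bleomycin, 3.82, 1.2, 7.1 and 5.53 TPM with Ad-GFP, and 11.2, 6.84, 3.87 and 4.95 TPM with Ad-ATP12A. The groups overlapped and Ccr6 was not called (differences 0.17, -0.28 and 0.29).

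Xcl1, secreted by activated CD8 T cells and NK cells, stood at 0.53, 1.18, 2.5 and 1.62 TPM in control, 3.38, 1.55, 1.59 and 6.9 TPM with bleomycin, 3.91, 4.71, 1.79 and 12.1 TPM with Ad-GFP, and 8.74, 7.08, 7.56 and 5.8 TPM with Ad-ATP12A. All Ad-ATP12A libraries lay above the controls. Xcl1 rose by 1.81 with Ad-ATP12A (SE 0.427, adjusted p = 0.00982), and its differences of 0.73 and 1.27 in the other groups were not called (adjusted p = 0.251 and 0.0637). Xcr1, its receptor on cross-presenting dendritic cells, stood at 2.03, 1.49, 1.92 and 1.93 TPM in control, 1.41, 1.88, 2.84 and 3.31 TPM with bleomycin, 3.6, 1.74, 4.65 and 2.56 TPM with Ad-GFP, and 4.03, 6.51, 1.49 and 1.9 TPM with Ad-ATP12A. Ad-ATP12A b1r2 and Ad-GFP b2r1 were highest and the groups overlapped, with no call (0.21, 0.49 and 0.52).

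Several members showed no difference that passed. Ccl24 and Ccl27a (45% of whose 50-base words occur in other genes), ligands of Ccr3 and Ccr10, ranged from 0.36 to 4.51 TPM and from 7.23 to 22.4 TPM. Ccr9, the receptor of Ccl25, ranged from 0.5 to 2.65 TPM. Besides Cxcl11, the genes under the filter were Ccl26, listed at 0 in all 16 libraries, and Ccl27b, Ccl28, Ccr3 and Ccr10, none above 1.12 TPM. Some genes came past the threshold when 1 library was left out. For bleomycin against control these were, besides Cxcl17 as given above, Ccl1 without bleomycin b2r1 or Ad-GFP b2r1 or b2r2 (adjusted p down to 0.0257), Cxcl5 without control b1r1 (adjusted p down to 0.0453), Cxcr2 without control b2r2 or bleomycin b2r1 (adjusted p down to 0.0424) and Cxcr5 without bleomycin b2r1 (adjusted p down to 0.0334). For Ad-GFP against control these were Ccl20 without Ad-GFP b1r2 or Ad-ATP12A b2r1 (adjusted p down to 0.0479), Ccl4 without bleomycin b2r1 (adjusted p down to 0.0416), Cxcl17 without control b2r1 (adjusted p down to 0.00786), Cxcr2 without control b2r2 (adjusted p down to 0.0204) and Xcl1 without Ad-GFP b2r1 (adjusted p down to 0.0107). For Ad-ATP12A against control these were Ackr3 without control b1r1, Ad-GFP b2r1 or b2r2, or Ad-ATP12A b1r2 (adjusted p down to 0.038), Ccr4 without bleomycin b2r1 or Ad-ATP12A b2r1 (adjusted p down to 0.0351), Cxcl1 without control b2r2, bleomycin b1r1 or b2r2, or Ad-GFP b1r2 or b2r2 (adjusted p down to 0.0349), Cxcl17 without control b2r1 (adjusted p down to 0.00756), Cxcl2 without bleomycin b2r1 or Ad-GFP b2r1 (adjusted p down to 0.0458), Cxcl5 without control b1r1 or Ad-GFP b2r1 (adjusted p down to 0.0277), Cxcr2 without control b2r2 (adjusted p down to 0.0354) and Cxcr5 without Ad-ATP12A b1r1 (adjusted p down to 0.0259).

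With bleomycin 19 of 34 ligands and 5 of 16 receptors were called, a contrast that was not tested. Of 15 receptors with a stated ligand that were tested, 4 rose with bleomycin together with at least 1 ligand (Ccr1, Ccr2 and Ccr8 among them), and 6 had a rising ligand and no rise of their own (Ccr4, Ccr7, Cxcr2, Cxcr3, Cxcr5 and Cxcr6). Cx3cr1 rose while its ligand fell, and for 4 receptors neither rose. With Ad-GFP 3 rose with a ligand and 6 had a rising ligand alone. With Ad-ATP12A 5 rose with a ligand (Ccr1, Ccr8, Cxcr3 and Cxcr6 among them) and 7 had a rising ligand alone.

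**Figure D3:**
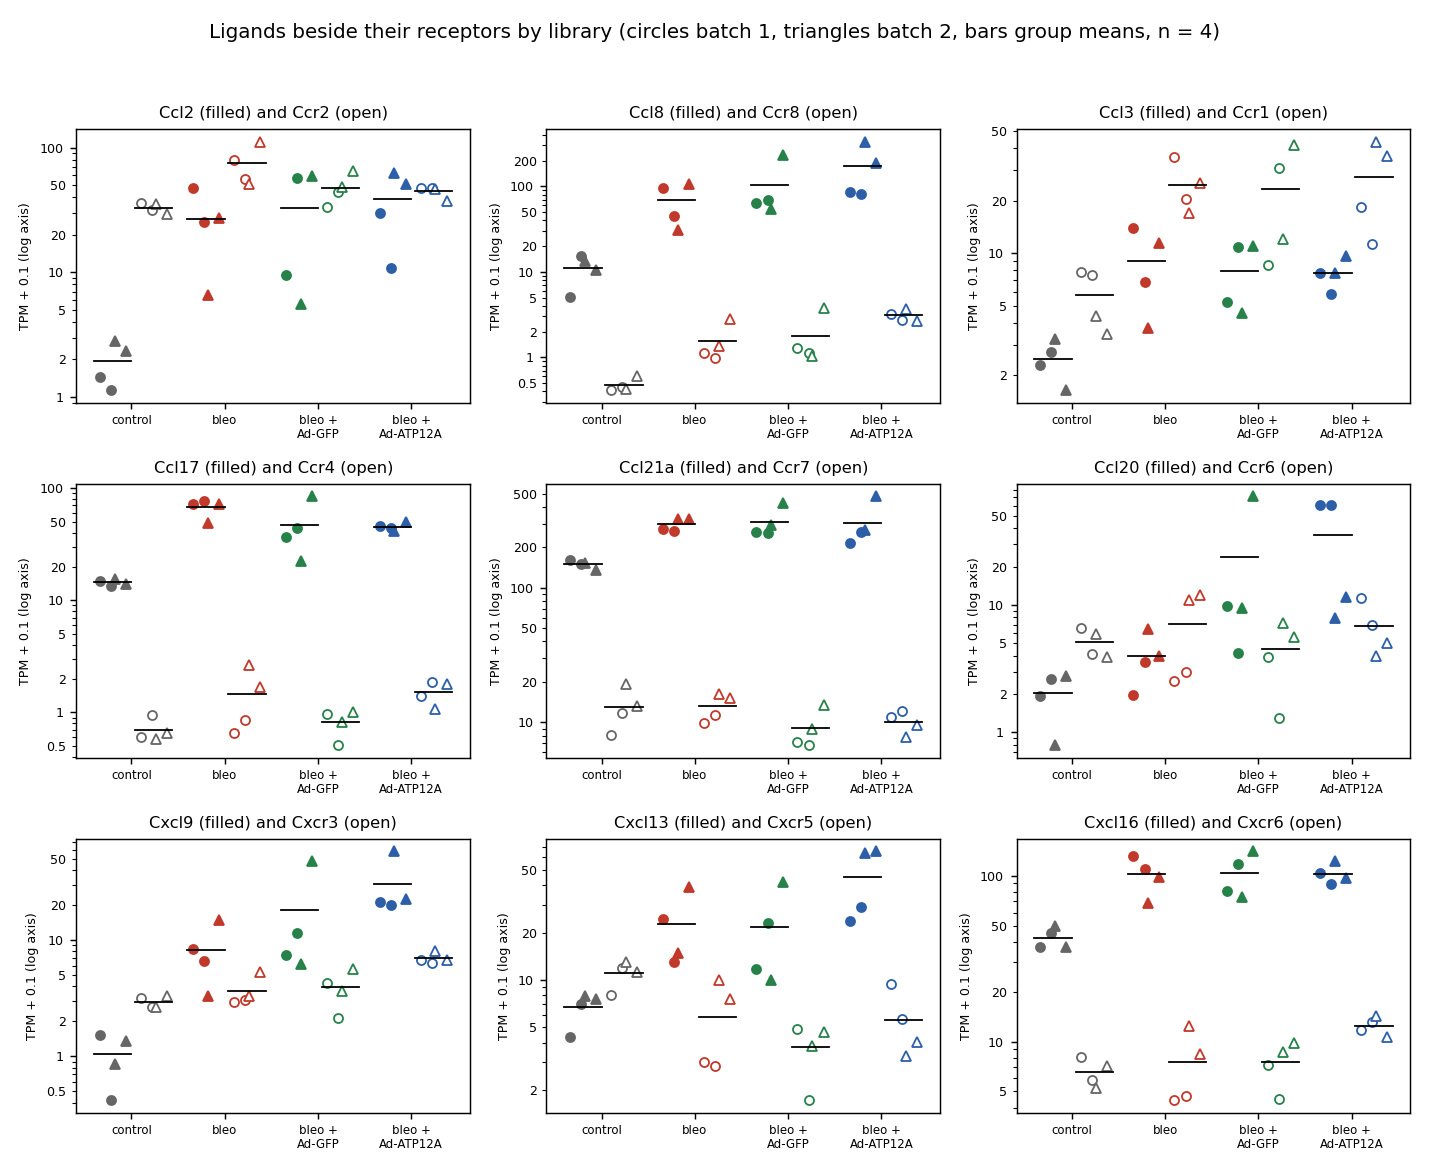
TPM of 9 ligands (filled) and of a receptor for each (open) in every library on log axes, with 0.1 TPM added for plotting; circles are batch 1, triangles batch 2 and bars means of 4 libraries. Ligands such as Ccl17, Ccl21a and Cxcl13 are higher in treated lungs while Ccr7 and Cxcr5 mostly overlap control or lie lower. Ccr4 lies above control with Ad-ATP12A and overlaps it in the other treated groups. Cxcr3 and Cxcr6 have their highest means with Ad-ATP12A.

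Neighbouring genes did not all follow one another. In the cluster Ccl2, Ccl7, Ccl11, Ccl12, Ccl8 and Ccl1, 4 of 6 rose with bleomycin, and Ccl11, an eotaxin, did not, at differences of -0.04, 0.43 and 0.33. In the cluster Ccl5, Ccl9, Ccl6, Ccl3 and Ccl4, 4 of 5 rose and Ccl5 did not. Of Ccl22, Cx3cl1 and Ccl17, which also lie close together, the outer genes rose and the middle one fell. In the cluster Cxcl5, Cxcl3, Cxcl15, Cxcl1 and Cxcl2, 1 of 5 rose. Order was taken from RefSeq, with at most 3 other protein-coding genes between members.

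Direct comparison of the vector groups gave no chemokine call. Between Ad-GFP and bleomycin 0 of 54 genes passed with limma, beside 0.0118% of all genes, and 4 had an unadjusted p under 0.05, beside 1.69%. These were Ccl17 (-0.66), Ccr2 (-0.61), Ccr7 (-0.52) and Cxcl14 (-0.58), and of them Cxcl14 was lower without overlap, a pattern that 0.529% of all genes showed (0.276% the reverse). The median of the 54 was -0.13 against -0.03 for all genes. Their adjusted p-values were all 1.

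Between Ad-ATP12A and Ad-GFP, the comparison that carries the vector control, again 0 of 54 passed with limma, beside 0.00588% of all genes. At an unadjusted p under 0.05 there were 9, all higher with Ad-ATP12A, beside 2.43% of all genes. They were Ccl4 (0.87, 95% interval 0.38 to 1.35), Cxcr3 (0.75, 0.34 to 1.16), Cxcr6 (0.69, 0.17 to 1.21), Ccr8 (0.66, 0.14 to 1.18), Ccr4 (0.49, 0.02 to 0.96), Cxcl13 (1.11, 0.25 to 1.98), Cxcl1 (0.70, 0.05 to 1.35), Ccl5 (0.45, 0.05 to 0.85) and Ccl19 (0.59, 0.00 to 1.18). Cxcr3, Ccl4, Cxcr6 and Ccr4 were higher without overlap, a pattern that 0.312% of all genes showed (0.459% the reverse). The adjusted p-value of each was 0.999, so none is a call. The median of the 54 was 0.26 against -0.01 for all genes, and 40 of 54 were above 0. T cell markers lay higher too, with a median of 0.64 over 8 markers. Medians were also above 0 for markers of eosinophils and mast cells (0.65 over 3 tested) and of monocytes and interstitial macrophages (0.48). They were 0.45 for B cell, 0.42 for neutrophil and 0.19 for alveolar macrophage markers. NK cell and dendritic cell markers had medians of -0.06 and -0.09. None of these markers passed the threshold, and their part was not tested.

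**Figure D4:**
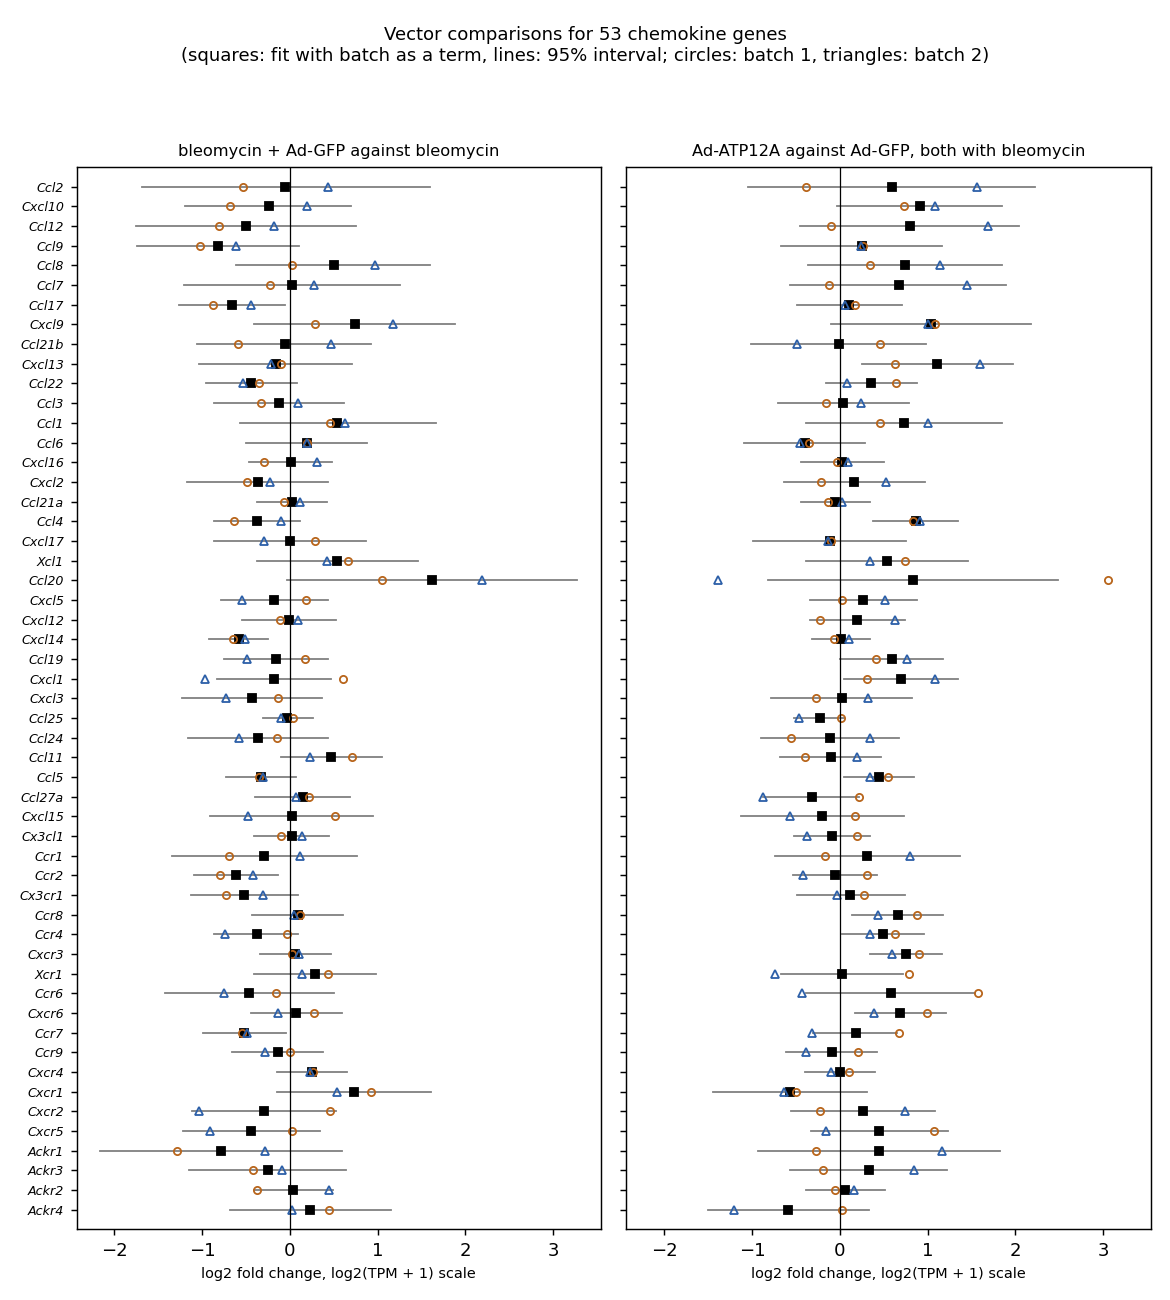
Log2 fold change of 53 of the 54 chemokine genes for Ad-GFP against bleomycin (left) and Ad-ATP12A against Ad-GFP (right); squares are the fit with batch as a term, lines its 95% interval, circles batch 1 and triangles batch 2. No gene passed an adjusted p of 0.05, most intervals cross 0, and Ccl20 lies at opposite sides of 0 in the 2 batches on the right.

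The intervals leave room for sizeable differences between the vectors. For Cxcl10 the difference was 0.91 (95% interval -0.03 to 1.85), for Cxcl9 1.04 (-0.10 to 2.18) and for Ccl2 0.59 (-1.05 to 2.23). For Ccl21a it was -0.05 (-0.44 to 0.34) and for Cxcl16 0.03 (-0.44 to 0.50). Ccl20 was higher with Ad-ATP12A in batch 1 (3.06) and lower in batch 2 (-1.39).

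Between batches, 3 of 54 genes were higher in batch 2 and 0 lower, or 5.56% beside 18.5% of all genes (16.4% higher and 2.11% lower). Ccl11, which draws eosinophils through Ccr3, stood at 4.33, 7.43, 6.77 and 7.92 TPM in control, 2.97, 4.91, 9.82 and 9.98 TPM with bleomycin, 8.62, 5.53, 9.29 and 14.97 TPM with Ad-GFP, and 3.81, 6.47, 10.3 and 18.1 TPM with Ad-ATP12A. The batches overlapped in control and in no other group. Ccl11 was higher in batch 2 by 0.87 (SE 0.19, adjusted p = 0.0124). Cxcl12 was higher by 0.77 (SE 0.179, adjusted p = 0.0145) and Ccl5 by 0.42 (SE 0.132, adjusted p = 0.0416). The call of Ccl5 was lost without any of 11 libraries, and held only without control b1r1, b1r2 or b2r2, Ad-GFP b2r1 or Ad-ATP12A b2r2 (adjusted p otherwise up to 0.0895). The effect of bleomycin did not differ between batches for any of the 54 at the threshold with limma, beside 0.0647% of all genes. At an unadjusted p under 0.05 there were 6, beside 19%: Ccr6 (1.84), Cxcr2 (1.92), Cxcl15 (2.21), Cxcr6 (1.18), Ccr4 (1.00) and Ccl6 (1.27). Each difference from control was more positive in batch 2, and the adjusted p-values ran from 0.095 to 0.248. By mean, Ccr6, Cxcr2, Cxcl15 and Cxcr6 were lower with bleomycin in batch 1 and higher in batch 2, while Ccl6 was higher in both.

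For lists of genes that act with chemokines, chosen with earlier results of these data known, the counts stand beside 13.2% of all genes higher and 5.61% lower with bleomycin and a median of 0.05. Of 22 genes of receptor signalling, 6 rose with bleomycin and 0 fell: Rgs1 (2.52) and Rgs16 (2.15), which shut off G protein signals, Rgs10 (0.82), the arrestin Arrb2 (0.81), the kinase subunit Pik3r5 (1.06) and Vav1 (0.88). The median of that list was 0.20. Of 10 tested genes of cytokines that induce chemokines or of their receptors, 5 rose, namely the cytokines Tnf (1.08), Il6 (1.22), Osm (1.10) and Tgfb1 (0.59) and the lymphotoxin beta receptor Ltbr (0.51). Their median was 0.55, and Ifng was under the filter. Of 9 genes that present or cut chemokines, 2 rose, the protease Mmp12 (5.38) and Sdc1 (0.50), with a median of 0.38 over the list, a count near the share of all genes. With Ad-ATP12A 2 of these 9 rose and 2 fell, beside 13.3% and 9.49% of all genes. The falls were Dpp4, which trims chemokines at their end (-1.29), and Sdc2 (-0.41). With Ad-GFP 2 rose and 2 fell (Mmp9, -1.58, and Sdc2, -0.42), beside 9.16% and 4.52%. The platelet chemokines Pf4 and Ppbp, which carry other names, were not called with bleomycin (-0.85 and -1.60). Of 5 tested related receptors and ligands, 1 rose with bleomycin (Gpr35, 1.05) and 2 fell, with a list median of -0.49. The falls were Ccrl2, a chemerin-binding relative of the receptors (-0.99), and the chemerin gene Rarres2 (-0.68).

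Markers of other cell types that a lung sample holds were read against the same shares of all genes. Of 5 fibroblast markers, 3 rose with bleomycin, with a sum of 359.2 to 421.2 TPM in control and 794.6 to 1569 TPM with bleomycin. Among alveolar macrophage markers 2 of 7 fell (Ear1 and Krt79) and none rose, with a median of -0.05. The counts for dendritic cell markers, where 1 of 6 rose (Batf3, list median 0.16), and for alveolar epithelial markers, where 1 of 6 fell (Hopx, list median -0.66), rest on 1 gene each. The part of these cells in the chemokine levels was not tested.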

How the data were processed

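RNA from mouse lung was extracted with a Qiagen kit and 0.6 ug of total RNA went into each library, per the labels' protocols. STAR, RSEM and the GRCm39 build are named in the submitters' processing notes, without versions. The authors deposited log2 values of TPM + 1 for 53647 Ensembl genes in 16 libraries, and TPM was recovered by reversing that transform. Symbols came from GENCODE M21 and matched 52093 genes. TPM keeps no depth, so no counting interval is given. Chemokine genes and the accompanying lists were chosen with earlier results of these data known.

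Genes that reached 1 TPM in 4 or more libraries were fitted on log2(TPM + 1) with limma 3.58.1 (trended variance, R 4.3.3), with 4 group means and batch, 2-sided and adjusted by Benjamini-Hochberg over all 17003 genes. Fold changes on that scale understate changes of low genes. Library values are given for genes called at a mean of at least 5 TPM in some group, and for their stated ligands or receptors. Cxcl2, Ccr8 and other low genes are given by range or as partners.

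In a test on simulated data of 16709 genes, the comparison of bleomycin with control recovered 79 of 100 genes changed by 1 log2 unit and 98 of 100 changed by 2, and called 11 unchanged genes. Changes were planted only in genes with a mean log2(TPM + 1) above 2, each with the same spread in every group. The recovery for lower genes, or for genes more spread in treated groups, was not tested. Alternatives covered the pseudocount, filter, scaling, batch term, replicate block, library weights, a term for Xist, and libraries left out. Protein features were not analysed here, and a gene that enters the counts is not reported here by its values.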

Additional observations from a re-analysis of the deposited data

Results flagged for a closer look

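In 9 of 212 sets of 4 libraries (53 genes in 4 groups), 1 library lay farther from the rest than Dixon's 95% value allows, where chance gives about 1 in 20, or 10.6. Low libraries were bleomycin b2r1 for Ccl17 (48.57 TPM, the others 72.05 to 76.52) and for Cxcl10 (13.86 TPM, the others 35.13 to 42.10), Ad-GFP b1r2 for Ccl21b (19.03 TPM, the others 86.22 to 98.82), Ad-ATP12A b2r1 for Ccl22 (11.38 TPM) and Ad-ATP12A b2r2 for Ccr2 (37.44 TPM). High libraries were control b1r1 for Ccr9 (2.65 TPM), Ad-GFP b2r2 for Ccr8 (3.63 TPM), Ad-ATP12A b1r2 for Cx3cl1 (17.76 TPM) and Ad-ATP12A b2r1 for Cxcl9 (57.76 TPM, the others 19.76 to 22.22). The number is near the chance value, and no explanation was tested.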

How the results depend on the processing

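For bleomycin against control, 26 chemokine genes were called, 12 without the 3 libraries low in Scgb1a1 and 1 in batch 2 alone, and 14 to 29 with 1 library left out. For Ad-GFP against control, 23 were called, 11 with no filter on low values, 12 with the 8 libraries compared alone, 15 without the libraries low in Scgb1a1 and 1 in batch 2 alone, and 8 to 24 with 1 library left out. For Ad-ATP12A against control the 29 calls stayed within 1.5 times under every setting run (23 to 32 with 1 library left out). For batch 2 against batch 1 the 3 calls became 5 with a mean of at least 5 TPM, 7 with array weights, 0 without the libraries low in Scgb1a1 and 0 when a log2 change of at least 1 was also required, and ranged from 2 to 5 with 1 library left out. The causes were not tested; the settings that leave out libraries also leave fewer samples. Ad-GFP against bleomycin, Ad-ATP12A against Ad-GFP and the difference of the bleomycin effect between batches gave 0 under every setting run. With a replicate block the counts were 26, 20 and 29 for bleomycin, Ad-GFP and Ad-ATP12A against control and 3 between batches. For each pair of groups in a batch, 1 correlation was taken between their same-numbered replicates, and it ran from -0.16 to 0.21. It does not compare whole library values, which correlated at 0.929 to 0.983 within groups. The numbers were therefore not taken as pairs. Over 81 called gene results and 2405 other fits, 358 lost the call and 0 changed direction. These fits reuse the libraries that gave the calls, so the shared direction is no separate check. Depth is unknown, and 4 libraries a group limit the precision.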
